A study of Mus musculus with 4 samples.

Results

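The CXC chemokine ligands are small secreted proteins that direct the migration of leukocytes and progenitor cells. The 9 ligand genes examined here were *Cxcl1*, *Cxcl2*, *Cxcl5*, *Cxcl9*, *Cxcl10*, *Cxcl12*, *Cxcl13*, *Cxcl14* and *Cxcl16*, taken from the table of expression values by their gene symbols. The table lists 45802 symbols, of which 16742 carry a value somewhere. All 9 ligands were among these, and 6 were measured in each of the 4 libraries. *Cxcl2* and *Cxcl13* were listed in 3 libraries and *Cxcl9* in 2.

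The cells were periosteal stromal cells from the hindlimbs of male PDGFRα-mTmG mice aged 9 to 10 weeks. In this model a CreER under the *Pdgfra* promoter switches membrane tdTomato to membrane GFP when tamoxifen is given, so that GFP marks PDGFRα reporter+ cells and tdTomato remains in PDGFRα reporter- cells. All animals of both groups had received tamoxifen at 150 mg/kg per day for 5 d, and bones were taken 14 days later. The cells of 3 to 6 mice per population according to the sample labels, and of a larger number according to the methods of the study, were pooled, grown for 1 passage with 10 ng/mL bFGF and sorted as CD31-, CD45- and Ter119-negative. Each population was sequenced as 2 libraries of total RNA. The reporter records activity of the promoter at the time of tamoxifen, and the *Pdgfra* transcript itself had log2 values of 7.78 and 7.62 in PDGFRα reporter+ libraries and 7.87 and 7.44 in PDGFRα reporter- libraries.

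Values are on the deposited log2 scale, after quantile normalization, and undetected genes are blank. The headings of the table number the libraries of each population 2 and 3, and libraries are named by these numbers. Over 14415 genes measured in every library, the correlation was 0.984 and 0.982 between libraries of one number and 0.952 and 0.957 between libraries of one population. Differences are therefore given overall and within each number. The 10 stromal marker genes examined had a value in all libraries. The linear unit and the sequencing depth are unknown. Counting errors are therefore missing, and levels of different genes were not ranked. The methods describe each sorted population as a pool of animals and in vitro work as done in biological replicates, without saying which pool gave which library. The p-values measure the spread between these libraries, with the variance of each gene moderated by those of other genes. Part of the spread may be technical.

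In these ligands the first pair of cysteines is separated by a single residue, and the family is divided by the residues in front of it. *Cxcl1*, *Cxcl2* and *Cxcl5* encode ligands with the glutamate-leucine-arginine motif, which act through CXCR2 and are known for the recruitment of neutrophils after stimuli that activate NF-κB. *Cxcl9* and *Cxcl10* encode interferon-induced ligands of CXCR3 on T cells and natural killer cells. *Cxcl12* encodes the stromal ligand of CXCR4 and ACKR3, which retains hematopoietic cells in bone marrow, *Cxcl13* the ligand of CXCR5 on B cells, *Cxcl14* a ligand made constitutively by many epithelia and fibroblasts, and *Cxcl16* a ligand of CXCR6 that is made as a transmembrane protein.

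The position of the genes follows this division in part. On build GRCm38.p6, *Cxcl5* (chr5:90759298-90761625), *Cxcl1* (chr5:90891245-90893121) and *Cxcl2* (chr5:90903899-90905938) lie on the plus strand of one cluster that also holds *Ppbp*, *Pf4*, *Cxcl3* and *Cxcl15*. *Cxcl9* (chr5:92321331-92328079) and *Cxcl10* (chr5:92346638-92348889) are neighbours on the minus strand, and *Cxcl13* (chr5:95956939-95961068) is on the plus strand of the same chromosome. *Cxcl12* (chr6:117168535-117181368, plus strand), *Cxcl16* (chr11:70454389-70459984, minus strand) and *Cxcl14* (chr13:56288643-56296811, minus strand) lie apart. In GENCODE M21 *Cxcl10* lies within *Art3* on the opposite strand, and *Cxcl16* overlaps *Zmynd15* on the opposite strand by 552 bases. Libraries were stranded, but whether strand was used in counting is not given in the sources used here. *Art3* had log2 values between −3.61 and −2.58, and reads of *Art3* and *Cxcl10* cannot be told apart if strand was ignored. *Zmynd15* had values between −4.13 and −2.76. Of the stretches of 50 bases in the *Cxcl2* transcripts, 5.84% also occur in another CXC ligand, mostly *Cxcl3*, and for the other 8 genes none do.

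RefSeq promoter sequences of GRCm38.p6, from 250 bases before to 50 after the gene start, were matched for 7 of the 9 genes. Those of *Cxcl1*, *Cxcl2*, *Cxcl10* and *Cxcl12* are shown because they set neutrophil-attracting and interferon-induced ligands beside a ligand made by stroma. Capitals mark matches, on either strand, to the NF-κB consensus and to the interferon-stimulated response element, written as GAAA repeated after 2 further bases. Sequences run 5′ to 3′ in the direction of the gene, at chr5:90890995-90891294 (plus strand), chr5:90903649-90903948 (plus strand), chr5:92348840-92349139 (minus strand) and chr6:117168285-117168584 (plus strand).
Cxcl1: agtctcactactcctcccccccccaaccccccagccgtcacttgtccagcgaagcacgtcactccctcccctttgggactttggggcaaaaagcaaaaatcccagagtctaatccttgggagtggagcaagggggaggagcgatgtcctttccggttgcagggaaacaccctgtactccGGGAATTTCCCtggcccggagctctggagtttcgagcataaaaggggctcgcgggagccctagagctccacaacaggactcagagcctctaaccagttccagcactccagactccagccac
Cxcl2: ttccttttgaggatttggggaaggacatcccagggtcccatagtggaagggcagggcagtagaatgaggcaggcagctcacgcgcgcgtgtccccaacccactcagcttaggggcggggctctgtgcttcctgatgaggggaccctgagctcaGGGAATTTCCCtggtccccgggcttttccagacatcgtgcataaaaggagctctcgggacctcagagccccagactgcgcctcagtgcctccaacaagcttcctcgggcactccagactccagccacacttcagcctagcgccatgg
Cxcl10: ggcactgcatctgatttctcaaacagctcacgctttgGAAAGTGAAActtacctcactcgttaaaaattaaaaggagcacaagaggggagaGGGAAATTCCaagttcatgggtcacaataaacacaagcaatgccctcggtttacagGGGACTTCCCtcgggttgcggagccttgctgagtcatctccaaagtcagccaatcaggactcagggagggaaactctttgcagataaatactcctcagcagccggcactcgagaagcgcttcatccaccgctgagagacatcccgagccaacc
Cxcl12: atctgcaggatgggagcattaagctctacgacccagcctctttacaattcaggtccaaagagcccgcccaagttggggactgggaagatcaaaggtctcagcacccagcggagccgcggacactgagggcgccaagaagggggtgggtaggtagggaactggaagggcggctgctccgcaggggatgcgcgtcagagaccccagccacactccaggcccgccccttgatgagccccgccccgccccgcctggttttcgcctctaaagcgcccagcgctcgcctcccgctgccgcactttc

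The same GGGAATTTCC stands in the promoters of *Cxcl1*, from position −71 relative to the gene start, of *Cxcl2*, from position −97, and of their neighbour *Cxcl3*, from position −73. Its match on the other strand overlaps it by all but 1 base, so that the capitals cover both. This element, read from the *Cxcl1* promoter itself, was found in 29 of 32851 RefSeq promoters of the same length (0.0883%). The NF-κB consensus as a whole, which includes it and must therefore be at least as frequent, was found in 4.51%. *Cxcl10* had the consensus at positions −159 and −103 and the repeated GAAA, found in 3.44% of promoters, at position −213. The *Cxcl9*, *Cxcl12* and *Cxcl13* windows held neither set of letters, and the *Cxcl14* window held the repeated GAAA at position −172. A match is a description of the letters only.

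*Cxcl1* and *Cxcl5* had higher values in both PDGFRα reporter+ libraries than in both PDGFRα reporter- libraries. The log2 values of *Cxcl1* were 4.94 and 4.90 in PDGFRα reporter+ libraries 2 and 3, and 4.14 and 3.72 in PDGFRα reporter- libraries 2 and 3. The groups did not overlap, and the PDGFRα reporter+ libraries were almost equal. Its mean was 4.92 ± 0.03 (SD, n = 2) against 3.93 ± 0.30 (SD, n = 2), a log2 fold change of 0.99 (SE 0.19), or 1.99-fold with a 95% interval of 1.39 to 2.84 from limma. The difference was 0.80 within number 2 and 1.19 within number 3. With limma, without a block, the unadjusted p was 0.00497 and the adjusted p was 1.

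*Cxcl5* had log2 values of 6.44 and 7.53 in PDGFRα reporter+ libraries 2 and 3, and 5.78 and 6.29 in PDGFRα reporter- libraries 2 and 3. The lowest PDGFRα reporter+ value was close to the highest PDGFRα reporter- value, although the groups were separate. This gave a log2 fold change of 0.95 (SE 0.43), or 1.93-fold with a limma interval of 0.88 to 4.26, made up of 0.66 within number 2 and 1.24 within number 3. The unadjusted p was 0.0837 and the adjusted p was 1 with limma. The log2 fold change was 0.41 when PDGFRα reporter+ library 3 was left out and 1.49 when PDGFRα reporter+ library 2 was.

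*Cxcl2*, the third ligand of this group, was not fitted because of a blank. Its log2 values were −2.68 in PDGFRα reporter+ library 2, −5.49 in PDGFRα reporter- library 2 and −3.94 in PDGFRα reporter- library 3, and PDGFRα reporter+ library 3 was blank. Within number 2 the PDGFRα reporter+ value was above the other by 2.81, or 7.02-fold, whereas within number 3 a value was listed in PDGFRα reporter- cells only.

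**Figure D1:**
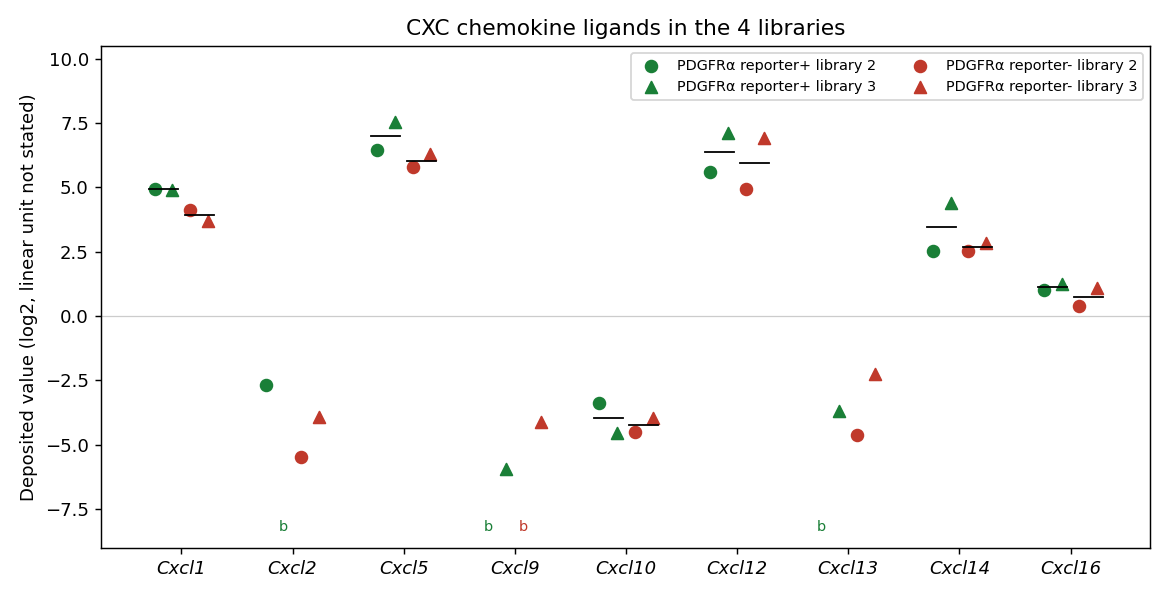
Deposited log2 values (vertical axis) of the 9 CXC ligand genes (horizontal axis) in PDGFRα reporter+ (green) and PDGFRα reporter- (red) libraries numbered 2 (circles) and 3 (triangles), with black lines for the mean of the 2 libraries where all 4 had a value and the letter b in place of a blank. *Cxcl1* and *Cxcl5* do not overlap between the populations, and the blanks belong to *Cxcl2*, *Cxcl9* and *Cxcl13*, whose listed values lie between −5.94 and −2.25.

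*Cxcl12*, the stromal ligand, differed more between numbers than between populations. Its log2 values were 5.58 and 7.13 in PDGFRα reporter+ libraries 2 and 3, and 4.94 and 6.93 in PDGFRα reporter- libraries 2 and 3. Both libraries numbered 3 were above both numbered 2, and the populations overlapped. The log2 fold change between populations was 0.42 (SE 0.85), with a limma interval of −1.86 to 2.70, and was 0.64 within number 2 and 0.20 within number 3. The adjusted p was 1 with limma, in a fit whose spread includes the difference between numbers. The log2 fold change was −0.57 when PDGFRα reporter- library 2 was left out and 1.41 when PDGFRα reporter- library 3 was.

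*Cxcl14* stood out in a single library. Its log2 values were 2.53 and 4.39 in PDGFRα reporter+ libraries 2 and 3, and 2.52 and 2.84 in PDGFRα reporter- libraries 2 and 3. PDGFRα reporter+ library 3 stood above the other 3 libraries, which lay within a narrow range. The log2 fold change was 0.78 (SE 0.64, adjusted p = 1 with limma), of which 0.02 was found within number 2 and 1.55 within number 3. Without PDGFRα reporter+ library 3 the value was −0.14. The difference of 1.53 between the numbers could not be tested, since it leaves no residual degrees of freedom.

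*Cxcl16* had log2 values of 1.03 and 1.26 in PDGFRα reporter+ libraries 2 and 3, and 0.40 and 1.10 in PDGFRα reporter- libraries 2 and 3. The populations overlapped, with PDGFRα reporter- library 2 as the lowest. Its log2 fold change of 0.40 (SE 0.33, adjusted p = 1 with limma) was 0.64 within number 2 and 0.17 within number 3. The log2 fold change was 0.05 when PDGFRα reporter- library 2 was left out and 0.75 when PDGFRα reporter- library 3 was.

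The interferon-induced ligands could be compared with each other within number 3 only. *Cxcl10* had log2 values of −3.37 and −4.54 in PDGFRα reporter+ libraries 2 and 3, and −4.52 and −3.96 in PDGFRα reporter- libraries 2 and 3. The difference was 1.15 within number 2 and −0.58 within number 3. The log2 fold change over all libraries was 0.28 (SE 0.71, adjusted p = 1 with limma). *Cxcl9* was blank in both libraries numbered 2. In those numbered 3 its log2 values were −5.94 in PDGFRα reporter+ cells and −4.12 in PDGFRα reporter- cells, a difference of −1.81. Both ligands of CXCR3 were thus lower in PDGFRα reporter+ cells within number 3, where each population has 1 library, whereas *Cxcl10* was higher within number 2. All these values were low beside the median listed value of 1.48.

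*Cxcl13* was blank in PDGFRα reporter+ library 2 and had a log2 value of −3.67 in PDGFRα reporter+ library 3. Its values in PDGFRα reporter- libraries 2 and 3 were −4.62 and −2.25, so that the only difference within a number was −1.42. In both numbers the PDGFRα reporter- library had the higher value or the only one.

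Of the 6 ligands measured in every library, 5 were higher in PDGFRα reporter+ cells within both numbers, which held for 22.1% of all genes tested, and *Cxcl10* was the exception. None of these 6 was lower within both numbers, as were 24.8% of all genes. *Cxcl2*, *Cxcl9* and *Cxcl13*, which had blanks, are left out of all counts here. Within number 3 the differences of *Cxcl9* and *Cxcl13* were −1.81 and −1.42, and *Cxcl2* was listed in PDGFRα reporter- cells only. Within number 2 the difference of *Cxcl2* was 2.81, and *Cxcl13* was listed in PDGFRα reporter- cells only. The populations did not overlap for *Cxcl1* and *Cxcl5*, compared with 7.59% of all genes in this direction, and 8.1% of all genes did so in the other. A limit of 2 SD of all log2 fold changes was at 0.83, and *Cxcl1* and *Cxcl5* were above it, compared with 3.36% of all genes. None of the 6 was below the lower limit, which 2.8% of all genes were. The median log2 fold change of the 6 ligands was 0.60, compared with −0.0035 over all genes. In the limma fit without a block, no ligand had an adjusted p under 0.05, and the share of all genes that did was 0%. At an unadjusted p under 0.05, *Cxcl1* was the only ligand, compared with 131 of 14415 genes (0.909%), or 0.451% in the direction of *Cxcl1*. For 2 libraries against 2, an exact two-sided permutation test of a single gene cannot give a p below 0.333.

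**Figure D2:**
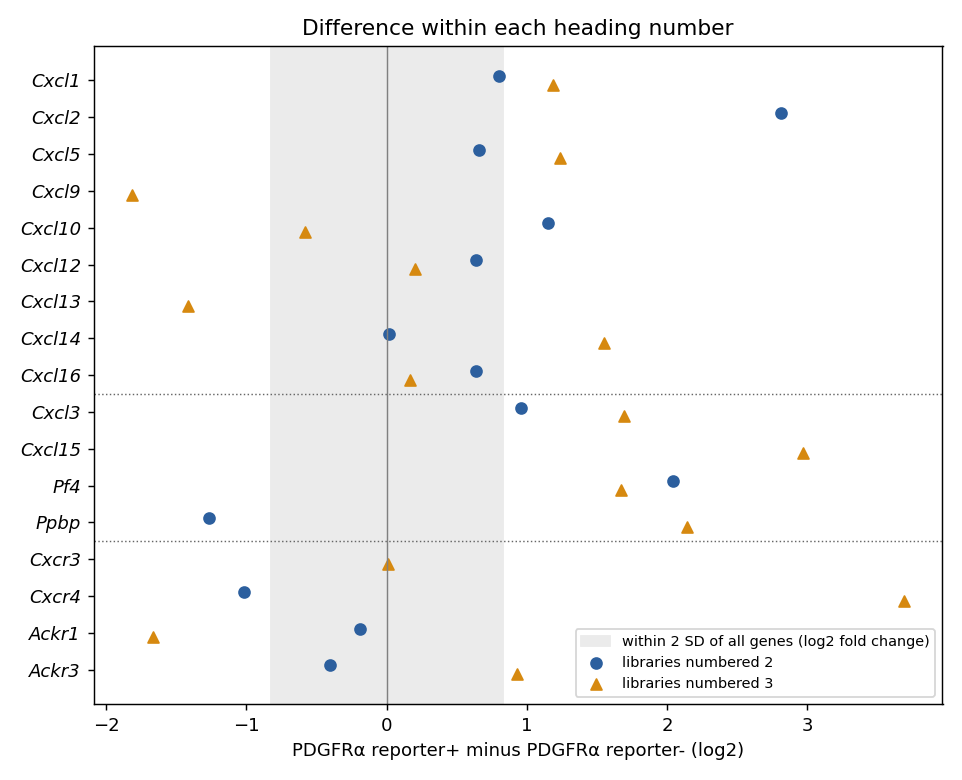
Difference in log2 value between PDGFRα reporter+ and PDGFRα reporter- libraries (horizontal axis) within number 2 (blue circles) and number 3 (orange triangles) for CXC ligands, other ligands of the family and receptors, separated by dotted lines; the grey band spans 2 SD of the log2 fold changes of all genes. *Cxcl1* and *Cxcl5* are to the right of 0 in both numbers, *Cxcl10* changes side, and *Cxcl9* and *Cxcl13* have a single point to the left. The band refers to fold changes of means over both numbers and is not a limit for the single differences shown.

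Between the libraries numbered 3 and 2, with the population as a term in limma, *Cxcl12*, *Cxcl5* and *Cxcl14* rose. These were 3 of the 6 ligands, whereas at a limma adjusted p under 0.05, 21.3% of all genes tested differed, 11.5% higher and 9.79% lower in number 3. With a pseudocount of 1 or without the population term *Cxcl12* alone of the 6 passed, as the limma adjusted p was 0.052 and 0.269 for *Cxcl5* and 0.136 and 0.187 for *Cxcl14*. For *Cxcl12* the rise was 1.55 in the PDGFRα reporter+ and 1.99 in the PDGFRα reporter- population, together 1.77 (SE 0.14), or 3.41-fold, with a limma adjusted p of 8.02e-05. *Cxcl5* was higher by 1.09 and 0.51, together 0.80 (SE 0.16, limma adjusted p = 0.00756). *Cxcl14* was higher by 1.85 and 0.32, together 1.09 (SE 0.29, limma adjusted p = 0.027), so that most of its difference came from PDGFRα reporter+ cells.

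The other 3 ligands did not pass. *Cxcl16* gave 0.46 (SE 0.21, limma adjusted p = 0.147), with values of 0.23 and 0.70 in the populations. *Cxcl1* gave −0.23 (SE 0.13, limma adjusted p = 0.251), with −0.04 and −0.43. *Cxcl10* gave −0.30 (SE 0.64, limma adjusted p = 0.779), with opposite signs of −1.17 in the PDGFRα reporter+ and 0.56 in the PDGFRα reporter- population. The sign of the difference thus depended on the population for *Cxcl10* only among these 3. Of the ligands with blanks, *Cxcl13* and *Cxcl2* were higher in number 3 of the PDGFRα reporter- cells by 2.37 and 1.55. In PDGFRα reporter+ cells *Cxcl2* was listed in number 2 only and *Cxcl13* in number 3 only. This comparison rests on 1 residual degree of freedom per gene, so its SE and p-values draw largely on the variances of other genes. For *Cxcl14* the differences in the populations were apart by 1.53, beside an SE of 0.29. Without a trend in the moderation of variances, an alternative chosen after seeing the data, limma gave 0 genes of 14415 below an adjusted p of 0.05, beside 3909 below an unadjusted p of 0.05, and *Cxcl12* had an adjusted p of 0.0624.

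**Figure D3:**
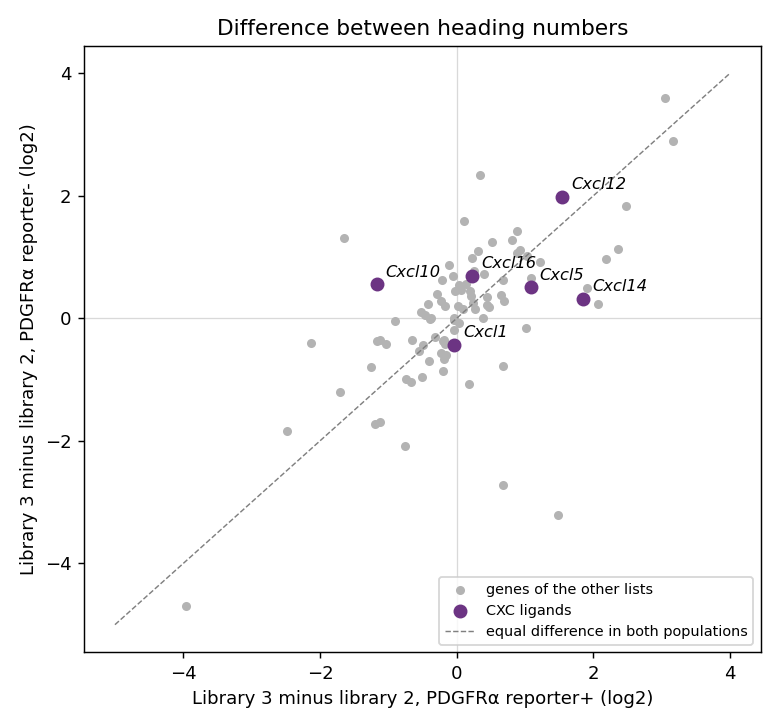
Difference in log2 value between libraries numbered 3 and 2 in PDGFRα reporter+ cells (horizontal axis) and PDGFRα reporter- cells (vertical axis) for the 6 CXC ligands with a value in all libraries (purple) and for genes of the other lists (grey), with a dashed line of equal difference. *Cxcl12* lies high on both axes at 1.55 and 1.99, *Cxcl14* lies far to the right of the line, and *Cxcl10* has opposite signs.

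The patterns of the 6 ligands over the 4 libraries were compared by the Euclidean distance between their log2 values after subtraction of each gene's mean. *Cxcl5* and *Cxcl14* were nearest to each other (distance 0.58), and *Cxcl12* was nearest to *Cxcl5* (1.22). Among genes whose mean log2 value was 0 or more, 10224 in number, those nearest to *Cxcl1* were *Mt2* (0.28), a metallothionein, and *Cyp7b1* (0.32), an oxysterol hydroxylase. The nearest to *Cxcl5* were *Alpl* (0.19), tissue-nonspecific alkaline phosphatase, and *Pitx1* (0.27), a hindlimb homeobox factor. *Cxcl12* was followed most closely by *Slc40a1* (0.12), the iron exporter ferroportin, and *Enpp2* (0.12), autotaxin. *Cxcl10* had *Oasl2* (0.13) and *Bst2* (0.16), the surface protein tetherin, as nearest genes, and *Cxcl16* had *Icam1* (0.06), an adhesion molecule, and *Porcn* (0.07), an acyltransferase for Wnt ligands. The nearest to *Cxcl14* were *Il20ra* (0.22) and *Zfp973* (0.34). With 4 libraries, these distances describe the values and were not tested.

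Of the 6 other ligand genes of the family, *Cxcl11*, annotated in RefSeq as a transcribed pseudogene, and *Cxcl17* were blank in all libraries. *Pf4*, which encodes platelet factor 4, had log2 values of 1.10 and 0.72 in PDGFRα reporter+ and −0.94 and −0.95 in PDGFRα reporter- libraries, a log2 fold change of 1.86 (SE 0.31, adjusted p = 1 with limma without a block). The populations of *Pf4* did not overlap. *Cxcl3*, a neutrophil-attracting ligand like its neighbours *Cxcl1* and *Cxcl2*, had 1.81 and −2.15 in PDGFRα reporter+ and 0.86 and −3.84 in PDGFRα reporter- libraries. Its differences within numbers 2 and 3 were 0.95 and 1.69, and it fell by 4.33 from number 2 to number 3 (limma adjusted p = 4.99e-05). *Cxcl5* and *Cxcl3* of the same cluster thus changed in opposite directions between numbers. *Ppbp*, the precursor of platelet basic protein, was lower in PDGFRα reporter+ cells within number 2 (−1.27) and higher within number 3 (2.14), and *Cxcl15* was listed in the libraries numbered 3 only, higher in PDGFRα reporter+ cells by 2.97.

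Among 8 receptor genes, *Cxcr1* was blank in all libraries, and *Cxcr2*, *Cxcr3*, *Cxcr5* and *Cxcr6* were listed in 1 or 2 libraries at log2 values of at most −6.09. *Ackr3*, which encodes a scavenging receptor of CXCL12, was the receptor gene with values above 0, at 5.69 and 4.93 in PDGFRα reporter+ and 6.09 and 4.01 in PDGFRα reporter- libraries. The populations overlapped, with a difference of −0.40 within number 2 and 0.93 within number 3. Between the numbers *Ackr3* fell by 1.42 (limma adjusted p = 0.00468), the opposite direction to its ligand *Cxcl12*. *Cxcr4* had values between −6.31 and −2.62, with differences of −1.02 and 3.69 within numbers 2 and 3. *Ackr1*, a chemokine-binding receptor of erythroid and endothelial cells, had values between −4.17 and −2.39. Between the populations, *Cxcr4*, *Ackr3* and *Ackr1* had log2 fold changes of 1.33, 0.26 and −0.93, each with an adjusted p of 1 with limma.

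Genes that act on or upstream of the ligands were taken as lists. For comparison, the PDGFRα reporter+ mean was the higher one for 7076 of all 14415 genes and the lower one for 7339. Of 6 genes for proteases that act on CXC ligands, 5 were measured in every library, with 4 higher and 1 lower in the PDGFRα reporter+ population and a median of 0.11. *Mmp9* had the largest log2 fold change of them, 1.75 (SE 0.37), with 3.21 and 3.89 against 2.18 and 1.41, whereas those of *Adam10* and *Adam17*, which release CXCL16 from the membrane, were 0.10 and 0.11. All 12 genes of NF-κB signalling were listed in each library, with 5 higher, 7 lower and a median of −0.02. *Nfkbiz*, a cofactor of NF-κB at secondary response genes, had a log2 fold change of 0.22 and fell by 1.46 between numbers 2 and 3 (limma adjusted p = 0.000259). Of 10 genes for inflammatory cytokine receptors and their signalling, 6 were higher and 4 lower, with a median of 0.08. Within both numbers 5 were higher (22.1% of all genes) and 0 lower (24.8% of all genes). *Il17ra*, a receptor of IL-17, was one of these 5, with differences of 0.33 and 0.32. Of 11 interferon signalling genes, 8 were higher and 3 lower, with a median of 0.10. The median was 0.28 within number 2 and −0.11 within number 3, and *Irf7*, which is itself induced by interferon, gave 0.73 and −1.003, with signs as for *Cxcl10*. No gene of these 4 lists had an adjusted p under 0.05 with limma between the populations, and 2 protease genes, *Mmp9* and *Ctsk*, had an unadjusted p under 0.05, which 0.909% of all genes had.

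Marker genes of other cell types were also compared between the populations. None of those fitted had an adjusted p under 0.05 with limma without a block. Of 15 macrophage genes, 14 were measured in every library. The PDGFRα reporter+ mean was higher for all 14, for 10 of them by more than 2 SD (3.36% of all genes), and their median was 0.96. Within both numbers 13 were higher (22.1% of all genes), and *Cd14* was lower within number 2 (−0.12). The log2 of the summed linear values of all 15 was 7.95 and 8.17 in PDGFRα reporter+ and 6.62 and 7.53 in PDGFRα reporter- libraries, a difference of 1.32 within number 2 and 0.64 within number 3. *Lyz2*, lysozyme, made up most of this sum, with 7.65 and 7.88 against 6.27 and 7.25. The defining marker *Csf1r* had values of 1.08 and 1.605 against −0.11 and 1.13. Of 10 neutrophil genes, 6 had a value in any library and 1, *Camp*, in all 4, and the summed level was −1.40 and 2.05 against −1.59 and 0.09, a difference of 0.20 within number 2 and 1.96 within number 3. *S100a8*, a calgranulin gene, had −4.21 and 1.39 in PDGFRα reporter+ libraries 2 and 3, a blank in PDGFRα reporter- library 2 and −1.14 in PDGFRα reporter- library 3. Its partner *S100a9* and the neutrophil genes *Ngp*, *Ltf* and *Retnlg* were blank in every library. Of 8 endothelial genes measured in every library, 7 were lower in PDGFRα reporter+ cells, 4 of them by more than 2 SD (2.8% of all genes), with a median of −1.30. The defining endothelial genes *Pecam1*, *Cdh5* and *Emcn* had log2 fold changes of −3.19, −4.26 and −3.44, while the sum over all 10 listed genes was 1.46 and 1.81 against 1.78 and 2.74. Of 8 genes of smooth muscle and pericytes, 7 were lower, 5 of them by more than 2 SD, with a median of −1.01 and summed levels of 4.06 and 4.81 against 5.19 and 5.43. Of the T-cell and B-cell genes, 4 of 8 and 3 of 8 had a value in any library, with summed levels of at most −2.29 and −4.08. All libraries came from cells sorted as CD31-, CD45- and Ter119-negative. *Ptprc*, the CD45 gene of the macrophage list, had log2 values of −1.28 and −0.39 in PDGFRα reporter+ and −2.30 and −1.22 in PDGFRα reporter- libraries. The part of these cell types in the differences of the ligands was not tested. In bulk samples, fewer cells of a type and less RNA per cell cannot be told apart.

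**Figure D4:**
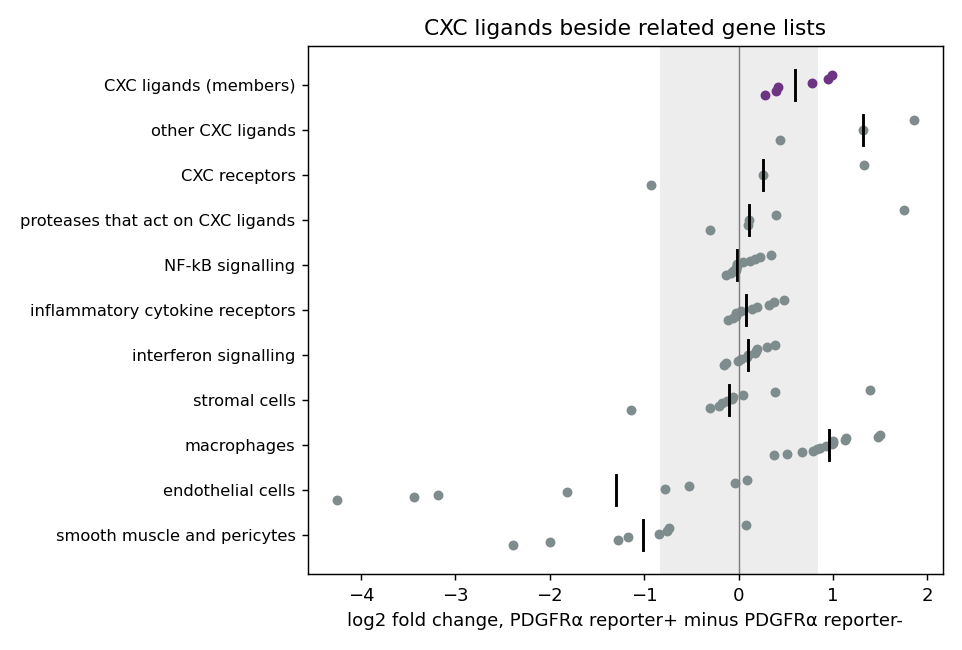
Log2 fold change between PDGFRα reporter+ and PDGFRα reporter- cells (horizontal axis) for genes with a value in all 4 libraries, in the lists with at least 3 such genes (rows); each point is a gene, black bars are list medians and the grey band spans 2 SD of all genes. The 6 CXC ligands (purple) have a median of 0.60, the 12 NF-κB genes are near 0, and the macrophage genes have a median of 0.96.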

How the data were processed

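Total RNA of 4 libraries was sequenced, 2 of PDGFRα reporter+ and 2 of PDGFRα reporter- periosteal cells. According to the methods and the submitters' processing notes, the authors made stranded paired-end Illumina libraries and used bcl2fastq 2.17.1.14, Partek 7.0, Spotfire and build GRCm38.p6. The authors deposited quantile-normalized log2 values (range −10.07 to 11.73 in each library). The counting method, annotation, linear unit and depth are not given in the sources used here.

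Columns were assigned to a population by their headings, which number libraries 2 and 3, whereas the sample labels number replicates 1 and 2. The 14415 genes measured in every library were fitted with limma 3.58.1 in R 4.3.3 (lmFit, two-sided eBayes with trend, no block). P-values were adjusted by Benjamini-Hochberg over these genes, with a threshold of 0.05. The heading number was tested in a limma model with the population as a term. Alternatives were a replicate block, scaling, a pseudocount of 1, a filter, filled blanks, no trend and leaving out each library. Positions and promoters were taken from RefSeq GRCm38.p6, overlaps and transcripts from GENCODE M21. Summaries were made in Python 3.11.15 with pandas 2.3.3, and figures with matplotlib 3.10.9.

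Named genes were the 9 ligands, genes of 14 lists and, by rule, the 2 genes nearest in pattern to each ligand. The members and lists were chosen with earlier results of these data known.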

Additional observations from a re-analysis of the deposited data

How the results depend on the processing

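Of the alternatives, the heading number as a replicate block moved the count of genes with an adjusted p under 0.05 between the populations from 0 to 29 with limma, of 14415 tested, 22 of them higher in PDGFRα reporter+ cells. With this block *Cxcl1* had an adjusted p of 0.0345 for its log2 fold change of 0.99, and the adjusted p ranged from 0.0642 (*Cxcl5*) to 1.00 (*Cxcl10*) for the other 5 members fitted. The blocked interval of *Cxcl12* was 0.10 to 0.74 for its log2 fold change of 0.42 (adjusted p = 0.491). *Pf4*, a further ligand of the family, also had 0.0345 with the block, and the macrophage genes *Tyrobp* and *C1qb* had 0.0437. When the block was used without a trend, an alternative chosen after seeing the data, 0 genes passed and *Cxcl1* did not. Across genes, deviations from population means correlated at 0.681 for libraries sharing a number, but with 2 pairs and no statement in the labels the numbers were not taken to pair the samples. The other planned settings left the count at 0.

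With 1 library left out, the log2 fold change ranged from 0.78 to 1.21 for *Cxcl1*, from 0.41 to 1.49 for *Cxcl5* and from 0.05 to 0.75 for *Cxcl16*. It changed sign for *Cxcl10* (−0.30 without PDGFRα reporter+ library 2), *Cxcl12* (−0.35 when PDGFRα reporter+ library 3 was left out, −0.57 for PDGFRα reporter- library 2) and *Cxcl14* (−0.14 without PDGFRα reporter+ library 3), with highest values of 0.87, 1.41 and 1.71. The numbers are then unequally represented in the populations.

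Between numbers 3 and 2, the 3065 genes called became 1825 with a pseudocount of 1 and 0 without a trend. *Cxcl5* and *Cxcl14* lost their call without the population term (limma adjusted p = 0.269 and 0.187), with the pseudocount (0.052 and 0.136) and without a trend (0.15 and 0.257). *Cxcl10* changed from −0.30 to 0.56 without either PDGFRα reporter+ library and to −1.17 without either PDGFRα reporter- library. Counts with a library left out could not be computed, as no residual degrees of freedom remain. Filling blanks with the lowest value gave log2 fold changes of −1.66 for *Cxcl2*, −0.91 for *Cxcl9* and −3.43 for *Cxcl13*, which the filled value sets.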
